A study of Rattus norvegicus with 6 samples.

Results

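The genes described are 10 receptors and ligands of the interleukin-1 family: the receptor genes Il1rl1, Il1rap, Il1r1, Il1r2 and Il18r1, the cytokine genes Il33, Il1a, Il1b and Il18, and the antagonist gene Il1rn. They were taken by symbol from the probe sets that carry a single gene symbol in the platform annotation. All 10 had a value, from 1 probe set each, out of 18166 genes measured. The list was drawn up with the differences between NICD1 and control cells already known, so the differences of these 10 genes are given as a description, without a test.

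The samples were NRK-52E, an established rat line of kidney tubule epithelial origin, hybridised as 3 control arrays and 3 arrays labelled NICD1. In the NICD1 group the intracellular domain of Notch1, the part of the receptor that enters the nucleus after cleavage and activates transcription with the DNA-binding protein RBPJ, was overexpressed from the pINDUCER21 vector system. The sources used here do not state which vector the controls carried, whether an inducer was given, how long expression lasted or how many clones were used. Cells of both groups were grown in the same serum-containing medium, and no cytokine treatment is named in the labels.

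Cytokines of this family signal through pairs of receptor chains. IL-1 alpha and IL-1 beta bind Il1r1, IL-33 binds Il1rl1 (also called ST2) and IL-18 binds Il18r1, and the first 2 complexes are completed by the shared accessory chain Il1rap. The assembled receptors recruit MyD88 and IRAK kinases and lead to NF-kB and AP-1 activity. Il1r2 is a decoy receptor without a signalling domain, and Il1rn encodes the IL-1 receptor antagonist, which occupies Il1r1 without starting a signal. IL-33 is a nuclear protein of epithelial and endothelial cells that is released on cell damage and is best known for acting on mast cells, innate lymphoid cells and regulatory T cells.

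Promoter windows from RefSeq, on the GRCr8 build, were available for 9 of the 10 genes, matched by gene identifier. Each holds 300 bases, from 250 before to 50 after an annotated start. The windows of Il1rl1, Il1rap, Il1r1 and Il33 are shown because 3 of them are receptor chains that read higher in NICD1 cells and Il33 is the ligand gene that read lower. Capitals mark the hexamer TGGGAA, the core of the RBPJ site, on either strand, so that TTCCCA is the same motif read on the other strand.
Il1rl1, chr9:50203388-50203687, plus strand: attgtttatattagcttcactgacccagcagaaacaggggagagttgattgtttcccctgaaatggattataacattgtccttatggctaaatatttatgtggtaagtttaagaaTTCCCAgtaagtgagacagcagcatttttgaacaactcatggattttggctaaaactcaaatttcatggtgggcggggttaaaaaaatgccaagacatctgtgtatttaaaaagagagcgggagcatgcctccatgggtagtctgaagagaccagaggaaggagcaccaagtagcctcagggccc
Il1rap, chr11:87704212-87704511, minus strand: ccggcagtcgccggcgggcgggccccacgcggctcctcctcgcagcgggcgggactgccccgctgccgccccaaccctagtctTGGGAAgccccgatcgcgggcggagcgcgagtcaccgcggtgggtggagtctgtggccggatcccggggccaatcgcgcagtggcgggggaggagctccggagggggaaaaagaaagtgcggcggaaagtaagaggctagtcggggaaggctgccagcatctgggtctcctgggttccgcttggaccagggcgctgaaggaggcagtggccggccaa
Il1r1, chr9:50034133-50034432, plus strand: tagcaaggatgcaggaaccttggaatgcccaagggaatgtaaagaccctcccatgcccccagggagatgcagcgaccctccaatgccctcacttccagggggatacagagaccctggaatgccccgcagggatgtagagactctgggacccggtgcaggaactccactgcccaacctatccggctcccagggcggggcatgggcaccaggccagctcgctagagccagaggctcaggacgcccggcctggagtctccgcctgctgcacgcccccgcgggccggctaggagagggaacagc
Il33 first start, chr1:237115323-237115622, plus strand: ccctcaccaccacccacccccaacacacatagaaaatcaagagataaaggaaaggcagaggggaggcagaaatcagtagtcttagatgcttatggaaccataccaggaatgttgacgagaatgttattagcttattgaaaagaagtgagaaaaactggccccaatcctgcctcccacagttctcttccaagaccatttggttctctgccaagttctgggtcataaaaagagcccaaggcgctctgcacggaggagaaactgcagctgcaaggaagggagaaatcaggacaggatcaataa
Il33 second start, chr1:237134696-237134995, plus strand: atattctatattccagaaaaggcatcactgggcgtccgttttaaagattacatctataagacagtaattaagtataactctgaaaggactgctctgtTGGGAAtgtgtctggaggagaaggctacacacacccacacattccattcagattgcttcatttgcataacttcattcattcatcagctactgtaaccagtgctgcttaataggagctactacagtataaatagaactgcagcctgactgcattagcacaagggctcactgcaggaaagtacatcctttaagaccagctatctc

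The Il1rl1 window held TGGGAA once, beginning 135 bases before the start. The Il1rap window held it once, 167 bases before the start, and a second annotated Il1rap start, whose window overlaps the one shown, had the same copy 86 bases before it. The Il1r1 window and the window of the first Il33 start held no copy, and the second Il33 start had 1 copy 153 bases before it. Of the 9 genes with a window, 6 had the hexamer in at least 1 window, among them Il1a and Il1b, which lay below the background level of the arrays in both groups. By window, 7 of the 11 windows of these genes held it, the overlapping Il1rap windows through the same copy. Of all 33469 promoter windows, 25.7% held the hexamer on either strand. The windows of these genes are few and not all separate, so nothing is read from the distance to that share. The longer form GTGGGAA, which contains the hexamer, was found in 6.29% of all windows and, among these genes, in Il1b. The AP-1 motif TGANTCA was present in 7.33% of all windows, and in those of Il1a and Il18 here. The loose NF-kB pattern, GGG and CC with 5 free bases between them, matched 47.3% of all windows and the E-box CANNTG 72.1%, both strands searched. The GC-rich Il1rap window (71.7% G and C) held the NF-kB pattern 5 times, partly overlapping one another and the hexamer, and the Il1rl1 window (42.0% G and C) held it 0 times. These matches describe the letters of the windows and not bound sites.

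Array values are log2 RMA intensities, for which the deposited linear intensities were log2-transformed. A background level was set at 5.67, the 95th percentile of mean level among 281 chemosensory receptor genes, which are mostly silent outside sensory tissue. A gene below this level has no measured amount beyond the brightness of such genes. The 3 arrays per group limit the precision, median linear intensity per array lay between 57.5 and 60.1, and no label states that replicates were separate cultures. Errors and p-values therefore cover only the spread among these 6 samples, which can be purely technical.

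The receptor chains of IL-33 and IL-1 were the members that stood highest in NICD1 cells relative to control. For Il1rl1 (Entrez gene 25556), the IL-33 receptor, the control arrays read 4.43, 4.77 and 4.85 and the NICD1 arrays 7.10, 7.05 and 6.97, all log2 intensity. All 3 control arrays lay below background and all 3 NICD1 arrays above it, and 2.12 on the log2 scale separated the highest control from the lowest NICD1 array. The group means were 4.68 ± 0.22 and 7.04 ± 0.07 (SD, n = 3 each), a difference of 2.36 (SE 0.112) or 5.12-fold. Measured against the background level in place of the control reading, NICD1 cells were at least 2.59-fold higher. Il1rl1 encodes a membrane receptor and a shorter secreted form that acts as a decoy for IL-33, and a single probe set value does not tell them apart.

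Il1rap (Entrez gene 25466), the accessory chain shared by the IL-1 and IL-33 receptors, was above background on every array. Its control arrays read 8.24, 8.14 and 8.26, and its NICD1 arrays 9.84, 9.85 and 9.82. The groups did not overlap, with a gap of 1.56. The means were 8.21 ± 0.07 and 9.84 ± 0.01 (SD, n = 3 each), which differ by 1.62 (SE 0.0556), 3.07-fold. Il1rap also has membrane and soluble forms, which share this value.

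Il1r1 (Entrez gene 25663), the signalling receptor of IL-1, read 10.75, 10.71 and 10.73 in control and 11.70, 11.74 and 11.69 in NICD1 cells. These arrays were tightly grouped, and the gap of 0.95 between the groups was nearly the whole difference of 0.98 (SE 0.049), 1.98-fold. The group means were 10.73 ± 0.02 and 11.71 ± 0.03 (SD, n = 3 each).

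The decoy receptor gene Il1r2 (Entrez gene 117022) stayed below background on all 6 arrays. Control arrays read 4.76, 4.70 and 4.58 and NICD1 arrays 4.87, 4.60 and 4.85, and the groups overlapped. Il18r1 (Entrez gene 301365), the ligand-binding chain of the IL-18 receptor, read 5.83, 5.79 and 5.80 in control, just above background, and 6.04, 6.19 and 6.39 in NICD1 cells. Its groups did not overlap, by a gap of 0.21, and the difference was 0.40 (SE 0.0888), 1.32-fold, between means of 5.81 ± 0.02 and 6.21 ± 0.17 (SD, n = 3 each).

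**Figure D1:**
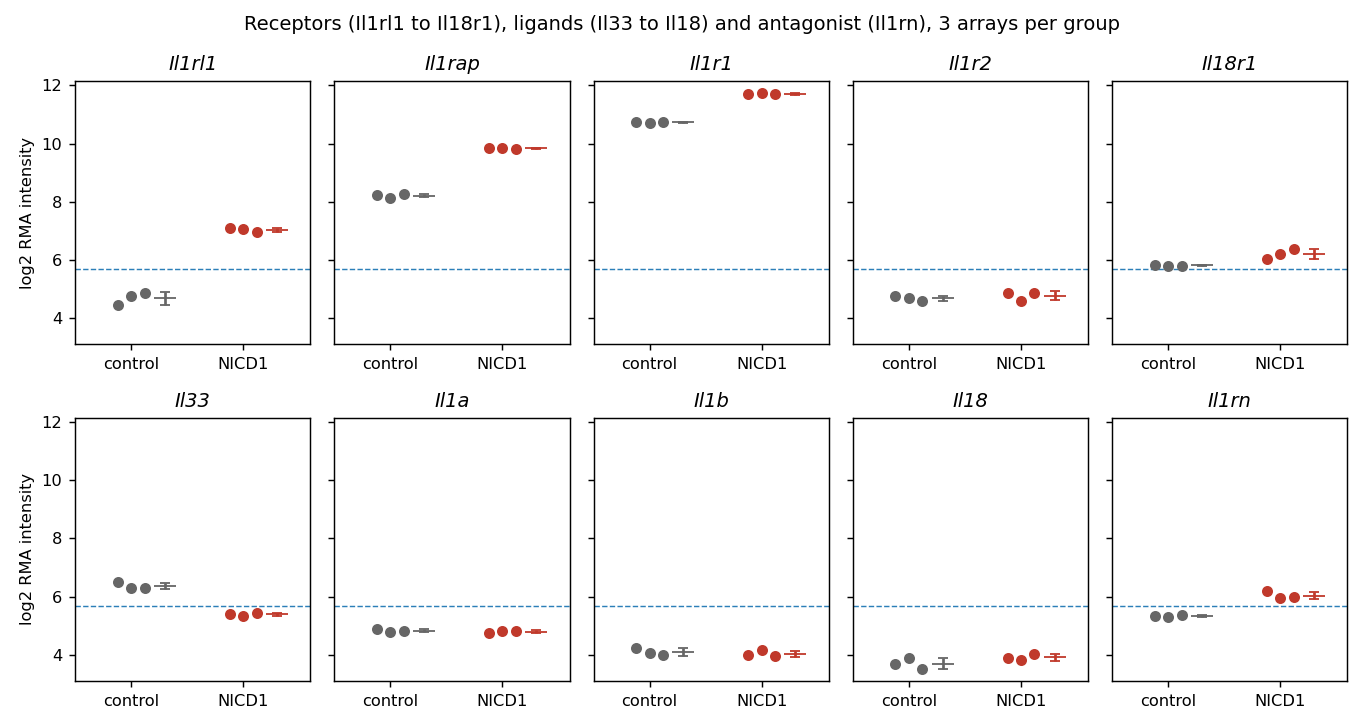
Log2 RMA intensity of the 10 receptor, ligand and antagonist genes on each array, with 3 control arrays in grey and 3 NICD1 arrays in red. The short bar beside each set is the mean with its SD, and the dashed line is the background level of 5.67. Il1rl1 and Il1rn cross the line upward and Il33 downward from control to NICD1, while Il1r2, Il1a, Il1b and Il18 lie below it in both groups.

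Il33 was the only ligand gene of the 4 described that lay above background in either group. Its control arrays read 6.49, 6.31 and 6.30, and its NICD1 arrays 5.40, 5.34 and 5.43. Every control array lay above the background level and every NICD1 array below it, with a gap of 0.87 between the groups. The means of Il33 (Entrez gene 361749) were 6.37 ± 0.11 and 5.39 ± 0.05 (SD, n = 3 each), a difference of -0.98 (SE 0.0687), or 1.97-fold higher in control, and at least 1.62-fold higher when the background level takes the place of the NICD1 reading. The IL-33 receptor gene and its ligand gene thus differed in opposite directions between the same arrays.

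The other 3 cytokine genes lay below background on all 6 arrays, and their groups overlapped. Il1a (Entrez gene 24493) read 4.90, 4.79 and 4.80 in control and 4.74, 4.81 and 4.83 in NICD1 cells. Il1b (Entrez gene 24494) read 4.24, 4.05 and 3.99 against 4.0, 4.15 and 3.95, and Il18 (Entrez gene 29197) read 3.67, 3.88 and 3.52 against 3.90, 3.80 and 4.03. No fold change is given for these genes, nor for Il1r2, because neither group exceeded background, and log2 differences printed or plotted for them are between readings below that level.

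The antagonist gene Il1rn (Entrez gene 60582) stood below background in control, at 5.34, 5.31 and 5.35, and above it in NICD1 cells, at 6.18, 5.94 and 5.97. The gap between the groups was 0.59. The means were 5.34 ± 0.02 and 6.03 ± 0.13 (SD, n = 3 each), 0.70 apart (SE 0.0735) or 1.62-fold, and at least 1.29-fold against the background level. Il1rn also has secreted and intracellular forms that this value does not separate.

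In the count over all 10 genes, 6 had groups that did not overlap, 5 higher and 1 lower in NICD1 cells. Over all 18166 genes, 32.8% had groups that did not overlap, 17.0% higher and 15.7% lower. In the limma fit of all genes, 14.7% passed a Benjamini-Hochberg adjusted p under 0.05, 7.45% upward and 7.22% downward. The median difference was 0.31 over the 10 genes and 0.01 over all genes. Because the list was chosen on this contrast, nothing is read from these counts or from this median.

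Among 11 other family ligands, receptors and binding proteins, 1 rose, 0 fell and 10 did not pass (limma, Benjamini-Hochberg), against 14.7% of all genes passing. At an unadjusted p under 0.05 the counts were also 1 higher and 0 lower. The median difference was 0.06, and 9 of the 11 lay below background in both groups. The gene that rose was Il1f10, which encodes IL-38, with a difference of 0.22 (SE 0.0531, limma adjusted p = 0.0359) between levels below background, 4.23 ± 0.04 and 4.45 ± 0.04 (SD, n = 3 each). It did not pass when any 1 of the 6 arrays was left out. The 2 genes above background were Il18rap, the accessory chain that pairs with Il18r1, and Il18bp, a secreted protein that captures IL-18. Il18rap read 6.90 ± 0.33 in control and 6.86 ± 0.17 in NICD1 cells, and Il18bp 7.79 ± 0.06 and 7.91 ± 0.09 (SD, n = 3 each). Neither passed, with limma adjusted p = 0.938 and 0.335.

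**Figure D2:**
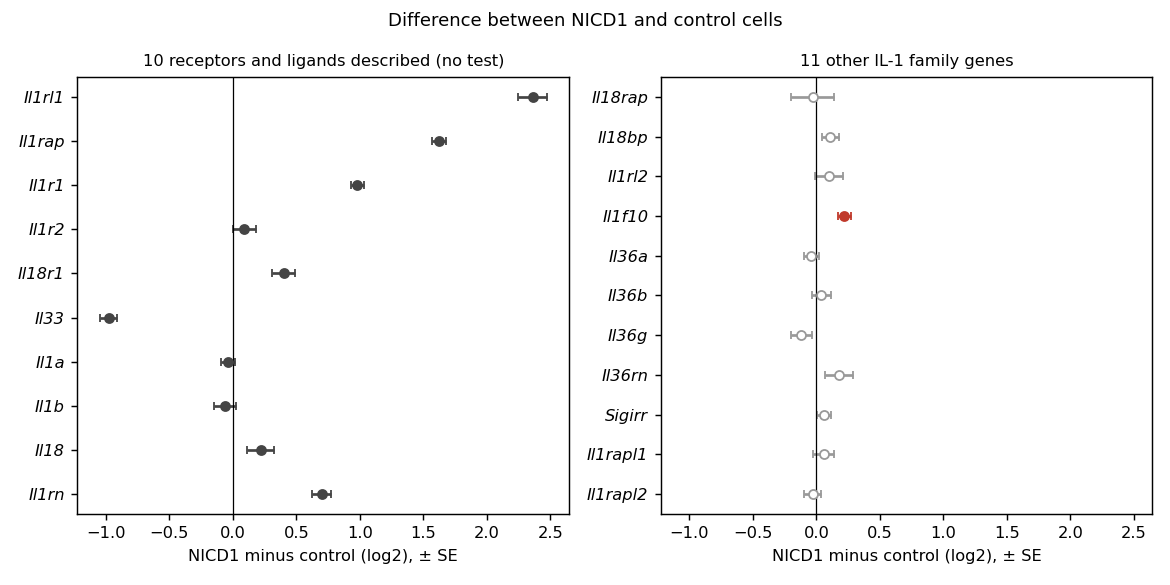
NICD1 minus control on the log2 scale, with its standard error from the fit of all genes, for the 10 genes described (left, no test) and for 11 other genes of the family (right). Filled red marks a limma adjusted p under 0.05 and open grey one that did not pass. Il1r2, Il1a, Il1b and Il18 are differences between readings below background. On the left the measured differences reach from -0.98 for Il33 to 2.36 for Il1rl1, and on the right from -0.12 to 0.22.

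In the list of genes that carry the signal from these receptors to NF-kB, there were 7 rises, 2 falls and 23 genes that did not pass among 32 measured (limma, Benjamini-Hochberg). That is 28.1% called against 14.7% of all genes, with a median difference of 0.02 against 0.01. The shares cover unlike genes, since 31 of the 32 lay above background in some group, against 11661 of all 18166. With the dimmest genes dropped, 10 of 31 passed, against 3216 of 12716 genes. Nothing is therefore read from the distance between 28.1% and 14.7%. Irak3, a kinase-like protein that restrains signalling from IL-1 and Toll-like receptors, read 9.88 ± 0.10 in control and 9.27 ± 0.08 in NICD1 cells (SD, n = 3 each). It fell by 0.61 on the log2 scale (SE 0.0738), with a limma adjusted p = 0.00165. Jun, a subunit of AP-1, read 7.73 ± 0.15 and 8.33 ± 0.01 (SD, n = 3 each) and rose by 0.60 (SE 0.0793), with a limma adjusted p = 0.00247. These 2 genes passed in every alternative run, the stricter threshold of 0.01 included.

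The other changes of that list were smaller. Ikbkb and Ikbkg, subunits of the kinase that releases NF-kB, rose by 0.32 (SE 0.0606) and 0.27 (SE 0.0567), and the ubiquitin ligase gene Peli1 by 0.28 (SE 0.0524). Irak4, the kinase that acts first at the receptor, rose by 0.36 (SE 0.0930), the adaptor Myd88 by 0.24 (SE 0.0584) and the NF-kB subunit Nfkb2 by 0.23 (SE 0.0584), and Peli3 had a fall of the same size as Nfkb2's rise (-0.23, SE 0.0585). Rela (0.05), Traf6 (0.15) and Irak1 (-0.10) did not pass. The number called was 3 without NICD1 replicate 2, 4 without NICD1 replicate 3, and 5 without NICD1 replicate 1 or control replicate 2. Myd88 did not pass without any 1 array, Irak4 did not pass without any 1 array except control replicate 3, and Peli1 did not pass without NICD1 replicate 2. Peli3 did not pass without any 1 array except control replicate 2. Ikbkg did not pass without control replicate 2 or any 1 NICD1 array, and Nfkb2 did not without control replicate 2 or 3 or NICD1 replicate 2 or 3. With replicate number as a block, Peli1, Ikbkg, Myd88, Nfkb2 and Peli3 did not pass.

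Genes for the cleavage and release of these cytokines changed in both directions. There were 2 rises and 3 falls among 20 measured, and 15 did not pass (limma, Benjamini-Hochberg). That is 25.0% called against 14.7% of all genes, with a median difference of -0.06. Of the 20, 15 lay above background in some group, against 11661 of all 18166 genes. With the dimmest genes dropped, 5 of 17 passed, against 3216 of 12716 genes, and nothing is read from the distance between 25.0% and 14.7%. Casp4, an inflammatory caspase that senses bacterial lipopolysaccharide in the cytosol, rose by 0.67 (SE 0.0717), and the inflammasome sensor Nlrp1a by 0.52 (SE 0.0953). Nlrp3, the sensor of the best-studied inflammasome, read 6.76 ± 0.16 in control and 5.71 ± 0.21 in NICD1 cells (SD, n = 3 each) and fell by 1.05 on the log2 scale (SE 0.123, limma adjusted p = 0.00142). Its NICD1 mean is just above the background level of 5.67 and below the 5.74 obtained when further olfactory receptor symbols are included. Gsdme, a pore-forming gasdermin, fell by 0.93 (SE 0.0937), and the cell-surface peptidase gene Mme fell by 0.40 (SE 0.0866). Mme did not pass without control replicate 2 or 3 or NICD1 replicate 1 or 3. Casp1, the protease that matures IL-1 beta and IL-18, and its adaptor Pycard lay below background in both groups, at 4.05 ± 0.18 and 3.98 ± 0.07 and at 5.28 ± 0.07 and 5.20 ± 0.17 (control and NICD1, SD, n = 3 each).

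Of 33 measured genes that IL-1 is known to induce in epithelial or stromal cells, 7 rose, 2 fell and 24 did not pass (limma, Benjamini-Hochberg). That is 27.3% called against 14.7% of all genes, and the median difference was 0.00 against 0.01. Of the 33, 22 lay above background in some group, against 11661 of all 18166 genes. With the dimmest genes dropped, 9 of 23 passed, against 3216 of 12716 genes, and nothing is read from the distance between 27.3% and 14.7%. Zc3h12a, which encodes the ribonuclease Regnase-1 that degrades inflammatory transcripts, read 7.41 ± 0.04 in control and 8.94 ± 0.09 in NICD1 cells (SD, n = 3 each) and rose by 1.53 (SE 0.0624, limma adjusted p = 1.56e-05). Csf3, which encodes the granulocyte colony-stimulating factor, rose by 0.63 (SE 0.0492), and Nfkbia, the inhibitor of NF-kB that NF-kB itself induces, by 0.39 (SE 0.0650). Tnfaip2 rose by 0.91 (SE 0.0561), the chemokine gene Ccl2 by 0.83 (SE 0.165) and the cytokine gene Il6 by 0.68 (SE 0.107), the last between levels below background. The growth factor gene Csf1 fell by 1.05 (SE 0.0722), and the second gene that fell was the cyclooxygenase gene Ptgs2 (-0.34, SE 0.0911). Ptgs2 did not pass when any 1 array was left out, under median centring or with replicate number as a block.

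Most genes of that list did not pass, and several well-known IL-1 responses were among them. The chemokine Cxcl1 had a value of -0.23 (SE 0.0786), the adhesion molecule Icam1 -0.15 (SE 0.0534) and the superoxide dismutase Sod2 -0.03 (SE 0.0554), all above background. Others above background that did not pass lay above 0, such as Cxcl2 at 0.23 (SE 0.15), Lif at 0.16 (SE 0.0561) and Nfkbiz at 0.16 (SE 0.0495). Among the genes that did pass, the remaining rise was that of Tlr2, 0.23 (SE 0.0576, limma adjusted p = 0.0385) between levels below background. Tlr2 did not pass when any 1 array was left out. Nor did Tlr2 pass with replicate number as a block, with an intensity trend or after repeated quantile normalisation. Ccl2, which passed in the main fit, did not pass without NICD1 replicate 1 or with replicate number as a block. These genes also respond to other signals, and whether their levels depend on the receptors described was not tested.

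**Figure D3:**
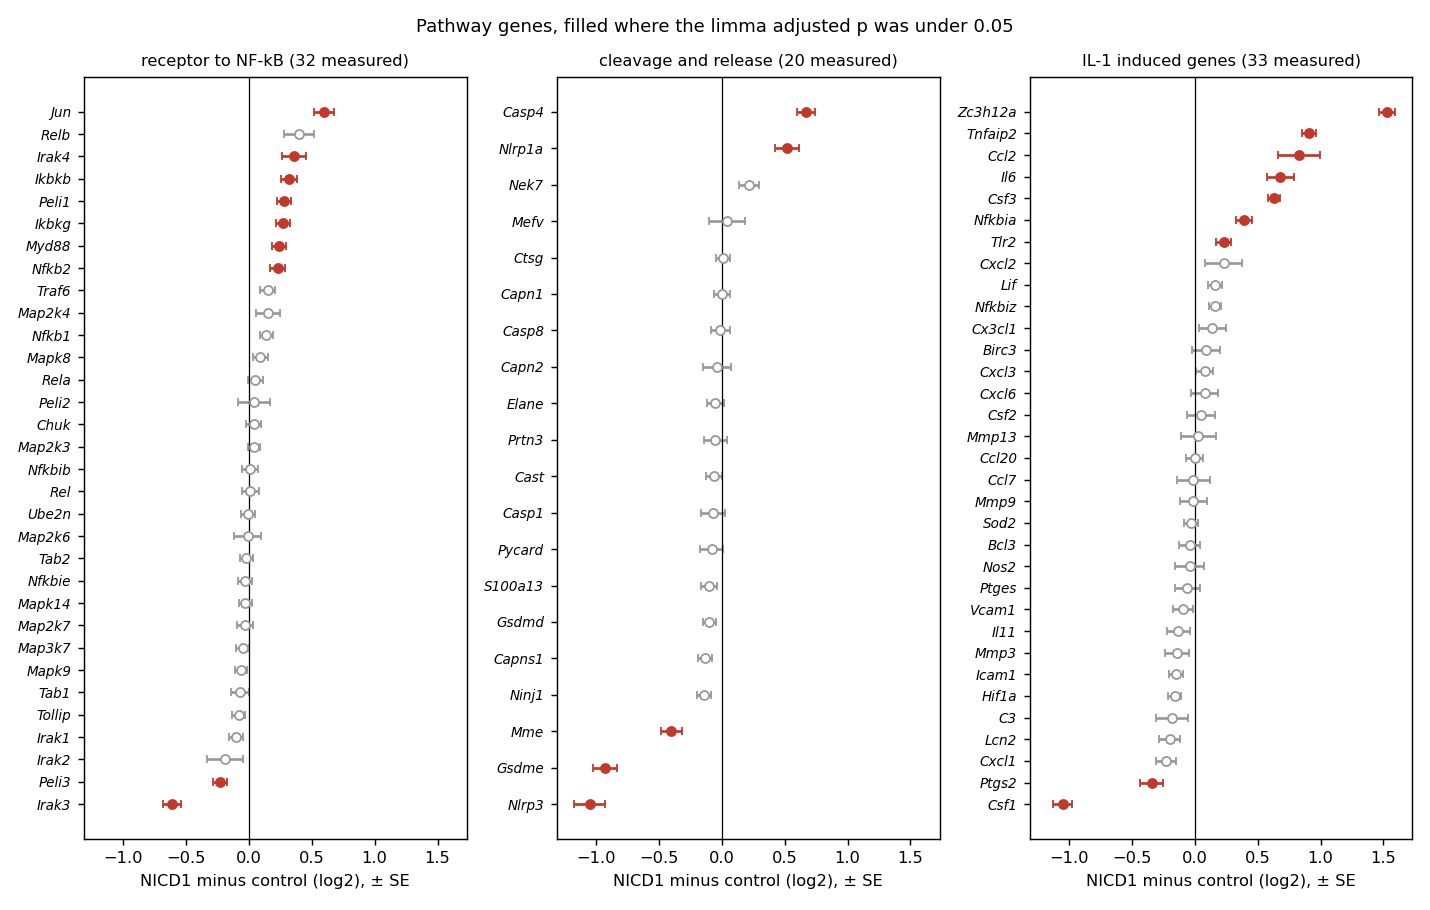
NICD1 minus control on the log2 scale, with its standard error, for 32 genes of signal transduction (left), 20 genes of cytokine cleavage and release (middle) and 33 genes induced by IL-1 (right). Filled red marks a limma adjusted p under 0.05. Most points lie near 0, and the outermost are Zc3h12a at 1.53 and Nlrp3 and Csf1 at -1.05.

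Of the 10 genes, 4 lie in a single cluster of receptor genes on rat chromosome 9, in the order Il1r2, Il1r1, Il1rl1 and Il18r1, with Il1rl2 between Il1r1 and Il1rl1 and Il18rap after Il18r1 in GRCr8. The differences were not uniform along this cluster. Il1r1 (0.98), Il1rl1 (2.36) and Il18r1 (0.40) were higher in NICD1 cells without overlap, while the groups overlapped for Il1r2 (0.09), Il1rl2 (0.10, a receptor for IL-36, below background) and Il18rap (-0.03). Il1rl2 lies between the 2 genes of the cluster with the largest differences. Beyond the cluster on one side the kinase gene Map4k4 rose by 0.38 (SE 0.0535, limma adjusted p = 0.00325), and on the other the sodium-proton exchangers Slc9a4 (-0.16) and Slc9a2 (-0.08) did not pass.

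**Figure D4:**
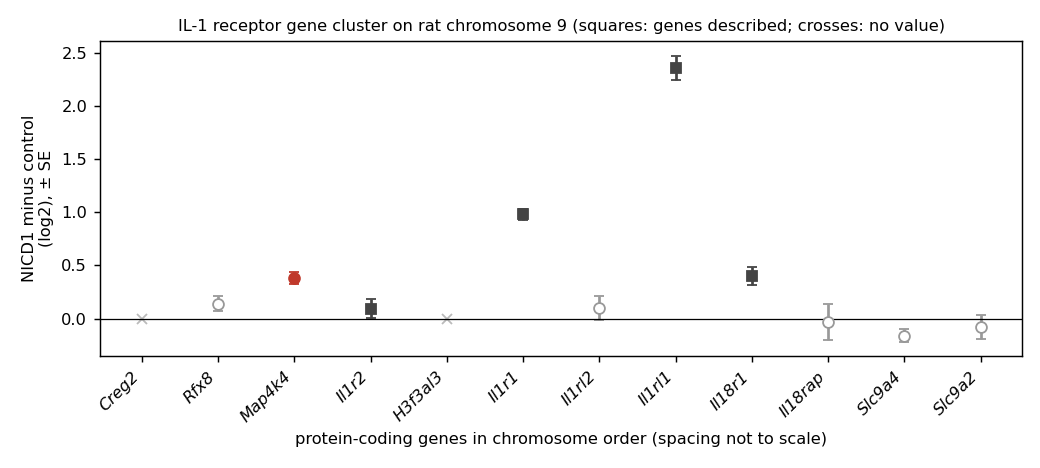
NICD1 minus control on the log2 scale, with its standard error, for protein-coding genes in their order around the receptor cluster of rat chromosome 9 (distances not to scale). Squares are genes described here, circles their neighbours (filled red where the limma adjusted p was under 0.05, here Map4k4), and crosses genes without a value. Il1rl1 stands at 2.36 between Il1rl2 at 0.10 and Il18r1 at 0.40.

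Around all 10 genes, on 5 chromosomes, 33 other genes within 3 places had a value, of which 5 rose, 1 fell and 27 did not pass (limma, Benjamini-Hochberg), with a median difference of 0.04. The 18.2% called is near the 14.7% of all genes. Besides Il1f10 beside Il1rn and Map4k4, these were Slc20a1, a phosphate transporter near Il1a that rose by 0.53 (SE 0.0583), Plet1 near Il18, which rose by 0.89 (SE 0.136) below background, Uhrf2 near Il33, which rose by 0.30 (SE 0.0607), and Sirpa near Il1b, which fell by 0.28 on the log2 scale (SE 0.0550). Uhrf2 did not pass without control replicate 2 or NICD1 replicate 2 or 3. Sirpa did not pass without NICD1 replicate 1 or 2 or with replicate number as a block. The measured genes next to Il1rap, among them Gmnc (-0.02), Tmem207 (-0.07), Cldn16 (0.26) and Cldn1 (-0.02), lay below background and did not pass. Immediately beside Il33, Ranbp6 (0.01) and Tpd52l3 (0.05) did not pass either. The remaining neighbours with a value, Rfx8, Ostn, Il36b, Il36rn, Psd4, Pax8, Cacna1b, Mlana, Brd10, Gldc, Chchd5, Ckap2l, Sirpb3, Pdyn, Pts, Sdhd and Timm8b, did not pass and had differences from -0.25 (Brd10) to 0.27 (Mlana). Brd10, near Il33, passed downward in 4 of the alternatives, among them median centring, Mlana passed without NICD1 replicate 3, and Sdhd passed with an intensity trend.

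The labelled tubule epithelium was weakly marked on these arrays: of 13 measured epithelial markers, 4 lay above background, Krt8, Krt19, Pax2 and Aqp1. Krt18, Cdh1, Epcam, Cldn1, Cdh16, Pax8, Lrp2, Cubn and Slc34a1 did not in either group. Krt8 read 10.36 in control and 11.44 in NICD1 cells, and Krt18 4.25 and 4.44. A reading below background does not show that a gene is silent. Krt8 rose by 1.08 (SE 0.0547, limma adjusted p = 3.24e-05) and 12 did not pass. Leukocytes, mast cells and innate lymphoid cells are the usual carriers of Il1rl1. Of 16 of their markers, 12 lay below background in both groups, including Ptprc and the mast cell genes Kit, Cpa3, Tpsab1, Ms4a2 and Fcer1a. The summed log2 level of the 16 was 87.0 to 88.0 on control and 86.5 to 87.9 on NICD1 arrays. Of the 4 above background, Cd68 rose by 0.27 (SE 0.0589), Gata3 fell by 0.77 on the log2 scale (SE 0.0623), and Cd14 (0.13) and Cd4 (0.03) did not pass. Of 5 endothelial markers Tek fell by 0.57 on the log2 scale (SE 0.0766) and 4 lay below background, and the summed level was 28.0 to 28.4 in control and 27.5 to 27.7 in NICD1 cells. Of 8 fibroblast and pericyte markers Col1a1 rose by 0.90 (SE 0.109), Pdgfrb (-0.24), Rgs5 (0.35) and Cspg4 (0.10) did not pass, Col1a2, Dcn, Lum and Pdgfra lay below background, and the sums were 44.8 to 45.7 and 46.2 to 46.4. These sums add log2 readings, many of them below background, and do not measure the amount of any cell type. In bulk RNA, more cells of a type and more RNA per cell cannot be told apart.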

How the data were processed

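Total RNA of 6 NRK-52E samples, 3 control and 3 NICD1 by their titles, was hybridised to Affymetrix whole-transcript arrays, per the labels' protocols. The deposited intensity values, 1 per probe set and array, are RMA values; the submitters' processing notes name Affymetrix Expression Console. RMA corrects background, normalises quantiles and summarises probes, which removes a shift shared by most transcripts. The sources used here state neither software versions nor a genome build.

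Here log2 was taken with no pseudocount. Of 36685 probe sets, 18511 had 1 gene symbol, 575 several and 17599 none, and the first were averaged to 18166 genes, with no filter on low values. The comparison used limma 3.58.1 under R 4.3.3 (lmFit, eBayes, group as the single term, two-sided), with Benjamini-Hochberg adjustment over all genes. Standard errors of differences come from this fit, and "passed" means an adjusted p under 0.05. The limma fit was tested on simulated data with known differences.

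The members and lists were chosen with earlier results of these data known. Genes named in each list are the called ones (at most 8, by adjusted p, where more were called), and in the neighbourhood of members all measured genes within 3 places among protein-coding genes of GRCr8; further list members are named as examples, chosen after their values were seen. Listed genes lacking a single-symbol probe set are not analysed here. The labels gave no batch. Alternatives were array weights, an intensity trend (robust prior), a replicate block, dropping each array, dropping the dimmest 30% of genes, the brightest probe set per gene, centring on medians, quantile normalisation repeated, and a threshold of 0.01. Figures used matplotlib 3.10.9.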

Additional observations from a re-analysis of the deposited data

How the results depend on the processing

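Over left-out arrays the differences ranged from 2.23 to 2.44 for Il1rl1, 1.58 to 1.64 for Il1rap and 0.97 to 0.99 for Il1r1. They ranged from 0.62 to 0.74 for Il1rn, 0.31 to 0.48 for Il18r1 and -1.01 to -0.92 for Il33. With 3 arrays per group, leaving 1 out cannot move a difference by 1 within-group SD. The replicate block, the intensity trend, dropping the dimmest genes and the brightest probe set could not change these differences at all. Array weights, median centring and repeated quantile normalisation could, and under them all 10 stayed within 1 within-group SD. The number of members whose groups did not overlap, 6, was 6 to 8 when an array was left out. Leaving an array out can keep or raise this number but not lower it. Calls over all genes numbered 2666, 1830 to 2486 without 1 array and 1473 at 0.01. The other family genes had 1 call, and 0 with the replicate block, without the dimmest genes, after repeated quantile normalisation, with an intensity trend, at 0.01 and without any 1 array (0 to 0, limma). Signal transduction had 9 calls, 5 with the replicate block, 3 to 6 without 1 array and 2 at 0.01. Cleavage and release had 5, 8 with an intensity trend and 3 at 0.01. Falls among the IL-1 induced genes numbered 5 with the trend, 3 with array weights or without the dimmest genes, and 1 with the block or median centring. No result named here reversed a call. The causes were not tested, except that a left-out array or the block leaves fewer degrees of freedom. No pairing of the arrays by replicate number was seen: deviations of same-numbered arrays correlated at -0.0319 to -0.0115, and 0 of 6 arrays correlated best with their own number. Deviations from a mean of 3 arrays depend on one another, so this check cannot exclude a pairing. With a background level of 5.74 from 1398 receptor genes no member changed sides. Signal near background limits Il1r2, Il1a, Il1b and Il18.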

Other observations

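The genes whose profile over the 6 arrays lay nearest to that of a member, out of 16295 compared, were found by the root mean square distance after each gene was centred on its own mean. They are described without a test, since the separation of the 2 groups sets most of such a distance and no function or control is implied. Nearest to Il1rl1 were Nppb, which encodes B-type natriuretic peptide (distance 0.128 on the log2 scale), the keratin gene Krt17 (0.129) and Fjx1 (0.131). Nppb stood at 8.55 in control and 11.09 in NICD1 cells, and Krt17 at 6.05 and 8.33. Nearest to Il1rap were Slc23a2, a vitamin C transporter (0.0189), the carboxypeptidase gene Cpm (0.0453) and Serinc5 (0.0554), of which Slc23a2 differed by 1.64 (SE 0.0578).

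Nearest to Il1r1 were Arhgef40 (0.0256), the ligand gene Wnt5a (0.0262) and the transcription factor gene Creb3l1 (0.0299), with differences of 0.95, 0.97 and 0.97. The receptor tyrosine kinase gene Axl (0.0370), the adenylate kinase gene Ak4 (0.0408) and Rpp14 (0.0486) were nearest to Il1rn. Nearest to Il33, and like it lower in NICD1 cells, were Eps8l2 (0.0424), podoplanin, Pdpn (0.0427), and the mannosidase gene Man1a1 (0.0534). Pdpn stood at 9.41 in control and 8.44 in NICD1 cells, a difference of -0.97 (SE 0.0799).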
